A study of Mus musculus with 12 samples.

Results

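The genes described here are 10 markers of cortical and hippocampal inhibitory interneurons and of their subtypes, among 55487 genes counted in mouse brain RNA. They are Gad1, Gad2, Lhx6, Nxph1, Sst, Vip, Npy, Pvalb, Calb2 and Reln, chosen by name as a list of interneuron markers, with no value in the rule, though by then earlier results of these data were known. RNA was sequenced from the tissue of 12 individual male mice in 4 groups of 3, in which exon 7 of Auts2 was targeted (allele Auts2tm1.1Dare). In the first context, forebrain at postnatal day 0 (P0), 3 knockouts carrying Cmv-cre, which deletes in the whole animal, were set against 3 wild-type littermates on the BL6 background. In the second, hippocampus at postnatal day 14 (P14), 3 knockouts carrying Nes-cre, which deletes in the neural lineage, were set against 3 controls that the labels call heterozygous and floxed (auts2-ex7-fl-het). Whether these P14 controls carry Cre is not given in the sources used here, so they may hold 1 or 2 working copies of the targeted form. Deletion was not limited to interneurons in either context, and both tissues are mixtures of many cell types.

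Inhibitory interneurons make the transmitter GABA from glutamate with glutamic acid decarboxylase, which 2 genes encode: Gad1 (the cytosolic form, GAD67) and Gad2 (the form at synaptic vesicles, GAD65). Those born in the medial ganglionic eminence carry the transcription factor Lhx6 and, in many cells, the secreted neurexin ligand Nxph1, and mature into cells with parvalbumin (Pvalb) or somatostatin (Sst). Those born in the caudal ganglionic eminence include cells with vasoactive intestinal peptide (Vip), calretinin (Calb2) or reelin (Reln), and neuropeptide Y (Npy) marks cells of both origins. Several of these genes are not limited to interneurons: striatal projection neurons make GABA, young dentate granule cells contain Gad1 for a time, Calb2 is also made by dentate mossy cells and Cajal-Retzius cells, and Reln is the defining product of Cajal-Retzius cells.

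Upstream sequence from RefSeq is shown for Gad1, which passed the test at P14, and for the 3 neuropeptide genes, whose levels lay far apart. RefSeq start-site windows (GRCm38.p6, 250 bases before and 50 after the start) were at hand for 9 of the 10 members, in 12 windows. The 120 bases just before the start are given 5′ to 3′ on the gene's strand, with capitals for letters that match a motif searched on both strands. The RefSeq start is not always that of the GENCODE gene given with the values: the Gad1 stretch lies inside the longer GENCODE gene, and so does most of the Sst stretch.
Gad1: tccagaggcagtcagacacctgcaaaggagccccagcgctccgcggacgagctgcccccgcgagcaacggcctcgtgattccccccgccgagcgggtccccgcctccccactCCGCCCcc
Sst: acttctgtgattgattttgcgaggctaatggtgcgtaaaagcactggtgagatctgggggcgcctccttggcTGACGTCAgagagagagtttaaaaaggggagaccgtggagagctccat
Vip: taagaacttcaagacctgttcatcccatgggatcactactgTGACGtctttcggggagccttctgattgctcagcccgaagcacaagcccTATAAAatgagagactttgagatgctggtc
Npy: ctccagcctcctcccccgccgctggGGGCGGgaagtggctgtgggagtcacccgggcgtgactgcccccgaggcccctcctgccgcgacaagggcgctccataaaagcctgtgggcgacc
These stretches are chr2:70562009-70562128 on the plus strand for Gad1, chr16:23890845-23890964 on the minus strand for Sst, chr10:5639098-5639217 on the plus strand for Vip and chr6:49822590-49822709 on the plus strand for Npy. The motifs were the cAMP response element TGACGTCA and its half-site TGACG, which the longer motif contains, the TATA box TATAAA and the GC box GGGCGG. A member was counted where any of its windows held a motif (Lhx6 had 3 windows and Pvalb 2), while the background shares count single windows. The full cAMP response element stood in the window of 1 member, Sst, with its first base at -48 from the start, and in 1.79% of 32851 mouse windows of the same length. The half-site stood in the windows of 3 members (Sst, Vip and Gad2), against 20.8% of all windows. The letters TATAAA stood in those of 3 members (Gad1, Lhx6 and Vip), against 13.6% of all windows. They began at -141 in Gad1, at 3 in 1 Lhx6 window, and at -157, -147 and -30 in Vip. A GC box stood in the windows of 5 members (Gad1, Lhx6, Nxph1, Npy and Reln), against 35.7% of all windows. The Reln window held 6 matches and had a GC content of 80.7%.

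A P0 library held 11247150 to 16796797 counts and a P14 library 16830720 to 23340621. Auts2 itself, counted over all isoforms and so no measure of exon 7 alone, was at 164, 181 and 161 CPM (counts relative to the TMM-scaled size of the library) in the P0 knockouts and 160.2, 136 and 155 in the wild types. At P14 it was at 92.9, 77.5 and 75.1 CPM in the knockouts and 97.4, 97.8 and 110.2 in the controls, and in neither context did the difference pass the test (edgeR adjusted p 0.362 and 0.111). Markers of the labelled tissues were present: the dentate granule list summed to 258 CPM or more in every P14 library, and the striatal list to 327 or more in every P0 library. P0 replicate 3 of both genotypes carries library numbers of a second series, apart from those of replicates 1 and 2, so P0 values are also given for the first series where that changes a call. Among the P14 controls, replicate 3 stood apart: the chi-square of its gene counts, divided by the degrees of freedom, was 17.5 against replicate 1, and 4.98 between replicates 1 and 2. The choroid plexus marker list summed to 157, 981 and 2563 CPM in P14 control replicates 1, 2 and 3, and to between 1379 and 2048 CPM in the knockouts; the part of this in the members' values was not tested.

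All 10 markers were detected in both contexts, and their levels spanned a wide range. Per kilobase of exonic sequence (RPKM), Sst, Npy and Calb2 were the 3 highest members in every group, in that order, with no overlap between neighbours. Mean Sst was 142 ± 14.6 RPKM in P0 wild types and 222 ± 36.1 RPKM in P14 controls (SD, n = 3 each). Npy followed at 106 ± 6.31 and 77.0 ± 8.99 RPKM, and Calb2 at 50.6 ± 11.6 and 49.3 ± 4.21 RPKM. At P0 the next in order were Gad1, then Gad2 and Lhx6, whose library ranges overlapped in both genotypes, then Nxph1 and Reln. Pvalb and Vip closed the P0 order and overlapped in the wild types, at 0.622 ± 0.419 and 0.251 ± 0.0513 RPKM. At P14 Gad2 and Gad1 held ranks 4 and 5. They overlapped in the controls, at 35.3 ± 2.14 and 33.8 ± 2.75 RPKM, and did not overlap in the knockouts, at 32.2 ± 2.68 and 26.3 ± 1.68 RPKM. This order depended on the length used. With the mean transcript length in place of all exonic bases, Sst stayed first in every group, Gad1 held rank 3 at P0 and rank 2 at P14, and Reln, low in the order by exonic bases, held rank 5 at P0 and rank 6 at P14.

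Set side by side with no test, since the tissues, ages, Cre lines and controls are not the same, the 2 control groups were furthest apart for Pvalb and Vip. Pvalb stood at 0.648 CPM in P0 wild types and 14.9 in P14 controls, and Vip at 0.853 and 15.5. Gad1 (187 and 258 CPM), Gad2 (112 and 207) and Sst (102 and 159.9) were also higher at P14. Lhx6 was at 88.7 CPM at P0 and 27.9 at P14, and Nxph1 at 68.0 and 40.4. Npy was at 60.1 and 43.6 CPM, Reln at 139 and 110.1, and Calb2 at 88.2 and 85.9.

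**Figure D1:**
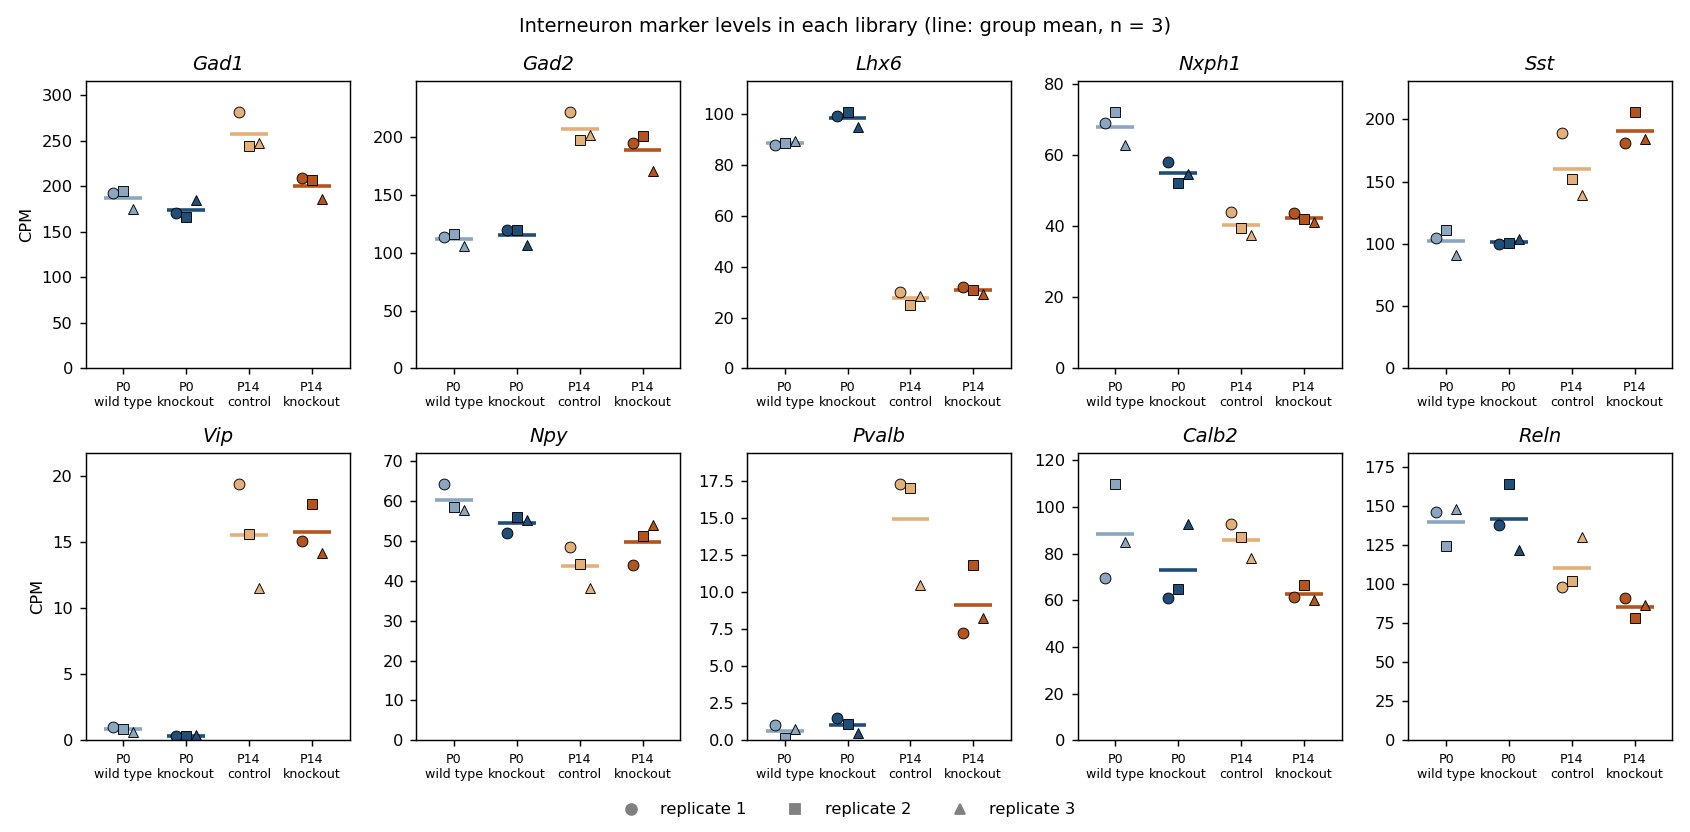
CPM of each of the 10 markers (vertical axis, starting at 0, 1 panel per gene) in each of the 12 libraries, by group on the horizontal axis, with a line at the mean of 3. At P14 the knockout libraries of Gad1, Calb2 and Reln all sit below the controls, and Pvalb and Vip are near 0 CPM in all P0 libraries.

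In the P14 hippocampus, 2 of the 10 markers were lower in the knockouts, the GABA-synthesizing enzyme gene Gad1 and the calretinin gene Calb2, and none was higher. Across all 17208 genes tested there, 1.99% passed. An unadjusted edgeR p under 0.05 was given by 5 of the 10 markers and by 2622 of the 17208 genes. Gad1 fell by 21.5% and Calb2 fell by 26.4%, while Gad2, Sst, Vip, Npy, Lhx6 and Nxph1 gave log2 fold changes between -0.12 and 0.26 that did not pass. The median log2 fold change of the members was -0.04, against -0.01 over all genes tested. The libraries of the 2 groups did not overlap for 3 of the 10 markers (Gad1, Calb2 and Reln), all lower in the knockouts, against 20.0% of all genes in either direction. Whether fewer cells of a type or less RNA per cell lies behind a difference cannot be told apart in bulk tissue.

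Gad1 (ENSMUSG00000070880, chr2:70553072-70602014, plus strand, GRCm38) was at 209, 207 and 186 CPM in the knockouts and 282, 244 and 248 CPM in the controls at P14. Every knockout library lay below every control library. Mean CPM was 201 ± 12.8 in knockouts and 258 ± 21.0 in controls (SD, n = 3 each). The fitted log2 fold change was -0.35 (SE 0.0767, 95% interval -0.51 to -0.19, edgeR adjusted p 0.0284). Leaving out 1 library at a time kept the direction, with values from -0.39 to -0.29, but the call held in 1 of the 6 fits, the one without control replicate 3, and adjusted p ranged from 0.00233 to 0.13. Without that library 10.3% of all genes passed the test. The antisense gene Gad1os, which overlaps Gad1 and cannot be separated from it in unstranded counts, had at most 11 counts in any library.

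Gad2 (ENSMUSG00000026787, chr2:22622205-22693874, plus strand), the other decarboxylase gene, was at 195, 201 and 171 CPM in the P14 knockouts and 222, 198 and 202 CPM in the controls, and the groups overlapped. Its log2 fold change was -0.12 (SE 0.0773, 95% interval -0.28 to 0.05, edgeR adjusted p 0.509). The other genes that handle GABA did not pass the test either: 0 of 6 did in either context by edgeR. In each context 2 of the 6 had an unadjusted edgeR p under 0.05. Over all genes, 2609 of 16176 did at P0 and 2622 of 17208 at P14. The 6 genes summed to 581 to 641 CPM in the P0 knockouts and 663 to 749.9 in the wild types. At P0 the GABA transporter gene Slc6a11 (log2 fold change -0.40, edgeR adjusted p 0.0647) and the GABA transaminase gene Abat (-0.27, edgeR adjusted p 0.136) were lower in every knockout. The rest overlapped. At P14 the sums overlapped, and Abat had means of 319 ± 21.9 CPM in knockouts and 329.9 ± 15.1 in controls (SD, n = 3 each). The vesicular GABA transporter gene Slc32a1, chosen after its values were seen, had 50.6 ± 7.01 and 45.2 ± 3.21 CPM. Within single libraries, the ratio of Gad1 to Gad2 counts was 1.07, 1.03 and 1.08 in the P14 knockouts and 1.27, 1.23 and 1.23 in the controls, which did not overlap. This ratio was chosen after the values were seen and is given with no test.

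Calb2 (ENSMUSG00000003657, chr8:110137502-110168210, minus strand), which encodes the calcium buffer calretinin, was at 61.5, 66.4 and 60.2 CPM in the P14 knockouts and 92.6, 87.2 and 78.0 CPM in the controls. The highest knockout library stayed below the lowest control. Mean CPM was 62.7 ± 3.26 in knockouts and 85.9 ± 7.34 in controls (SD, n = 3 each). The fitted log2 fold change was -0.44 (SE 0.0797, 95% interval -0.61 to -0.27, edgeR adjusted p 0.00927). Its call held in 3 of the 6 fits without 1 library (without control replicate 1, control replicate 3 or knockout replicate 2), with values from -0.50 to -0.39 and adjusted p from 0.000135 to 0.0786. In 1 fit to all 12 libraries, which shares the spread between contexts, Gad1 passed and Calb2 did not (-0.45, edgeR adjusted p 0.269). At P0, Calb2 varied more within groups: 60.8, 64.8 and 92.7 CPM in the knockouts and 69.7, 109.8 and 85.1 in the wild types. The marker list of thalamus and hypothalamus, picked here after its values were seen, also varied between these libraries. It summed to 432, 418 and 547 CPM in the knockouts and 431, 568 and 508 in the wild types. The part of such tissue in the Calb2 values was not tested.

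Pvalb (ENSMUSG00000005716, chr15:78191114-78206400, minus strand), the calcium buffer gene of fast-spiking interneurons, was at 7.25, 11.8 and 8.26 CPM in the P14 knockouts and 17.3, 17.0 and 10.5 CPM in the controls. Knockout replicate 2 lay above control replicate 3, so the groups overlapped. Its log2 fold change, -0.70, was the furthest from 0 among the members at P14, with an SE of 0.22 and a 95% interval of -1.19 to -0.20, and it did not pass (edgeR adjusted p 0.166). It passed without control replicate 3 (-0.89, edgeR adjusted p 0.00331) and in no other fit without 1 library, and it passed with DESeq2 (-0.70, adjusted p 0.0315). These values rest on 130 to 305 counts per library. Kcnc2, a fast potassium channel gene of the same cells, fell from 104 ± 11.3 CPM in controls to 76.0 ± 6.36 in knockouts (SD, n = 3 each; log2 fold change -0.45, edgeR adjusted p 0.0155). The Kcnc2 call held in 2 of the 6 fits without 1 library, those without knockout replicate 2 or control replicate 3, with adjusted p from 0.000226 to 0.127.

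Reln (ENSMUSG00000042453, chr5:21884454-22344702, minus strand), the gene of a secreted matrix protein that guides neuronal positioning, was at 91.3, 78.0 and 86.5 CPM in the P14 knockouts and 98.3, 102 and 129.9 CPM in the controls. The groups did not overlap, and the log2 fold change of -0.36 (SE 0.11, 95% interval -0.59 to -0.12) did not pass the test (edgeR adjusted p 0.12). It passed with DESeq2 (-0.36, adjusted p 0.0415) and with no filter on low counts (-0.35, edgeR adjusted p 0.00223), and in no fit without 1 library. Reln is on the chromosome of Auts2, 109.6 Mb away. Genes of its signalling did not pass either. The adaptor gene Dab1 was at 136 ± 4.81 CPM in knockouts and 153 ± 2.51 in controls (SD, n = 3 each), lower in every knockout library (log2 fold change -0.16, edgeR adjusted p 0.279). The receptor genes, chosen after their values were seen, were Vldlr, also lower in every knockout, at 105 ± 2.51 and 117 ± 5.86 CPM (-0.15, edgeR adjusted p 0.336), and Lrp8, which overlapped, at 132 ± 7.49 and 125 ± 18.3 CPM.

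The 3 neuropeptide genes showed no call at P14. Sst (ENSMUSG00000004366, chr16:23889573-23890958, minus strand), the gene of the peptide of dendrite-targeting interneurons, was at 181, 206 and 184 CPM in the knockouts and 189, 152 and 139 in the controls. Control replicates 2 and 3 lay below all knockouts and control replicate 1 among them, and the log2 fold change of 0.26 (SE 0.0984, 95% interval 0.05 to 0.48) did not pass (edgeR adjusted p 0.211). Without control replicate 1, the highest control, it passed (0.40, edgeR adjusted p 0.0431). Npy (ENSMUSG00000029819, chr6:49822710-49829507, plus strand) was at 43.8, 51.2 and 53.9 CPM in the knockouts and 48.3, 44.2 and 38.2 in the controls, which overlapped (log2 fold change 0.20, edgeR adjusted p 0.36). Vip (ENSMUSG00000019772, chr10:5639218-5647617, plus strand), the peptide gene of interneurons that contact other interneurons, was at 15.1, 17.9 and 14.2 CPM in the knockouts and 19.4, 15.6 and 11.5 in the controls. Its 95% interval ran from -0.32 to 0.39 around 0.04 (edgeR adjusted p 0.951).

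The 2 markers of medial ganglionic eminence origin did not pass at P14. Lhx6 (ENSMUSG00000026890, chr2:36081953-36105408, minus strand) was at 32.0, 30.9 and 29.2 CPM in the knockouts and 30.1, 24.9 and 28.6 in the controls. Its log2 fold change was 0.15, with a 95% interval from -0.05 to 0.35 (edgeR adjusted p 0.484). Nxph1 (ENSMUSG00000046178, chr6:8948431-9249032, plus strand) was at 43.8, 42.0 and 41.2 CPM in the knockouts and 44.0, 39.6 and 37.6 in the controls, and its interval of -0.10 to 0.26 around 0.08 includes 0 (edgeR adjusted p 0.717). Both groups overlapped for both genes.

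**Figure D2:**
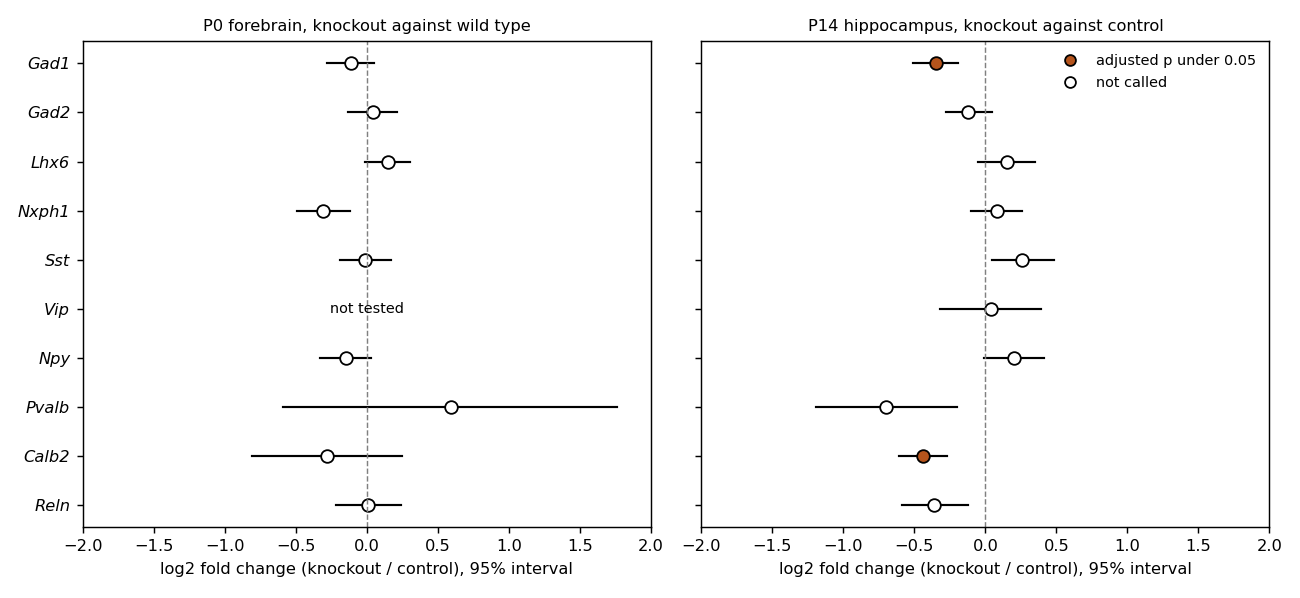
Log2 fold change of each marker (horizontal axis; knockout over wild type at P0, left, and over control at P14, right) with its 95% interval as a bar, filled where the edgeR adjusted p was under 0.05. Gad1 (-0.35) and Calb2 (-0.44) at P14 are the 2 filled points; Vip was too low to be tested at P0.

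**Figure D3:**
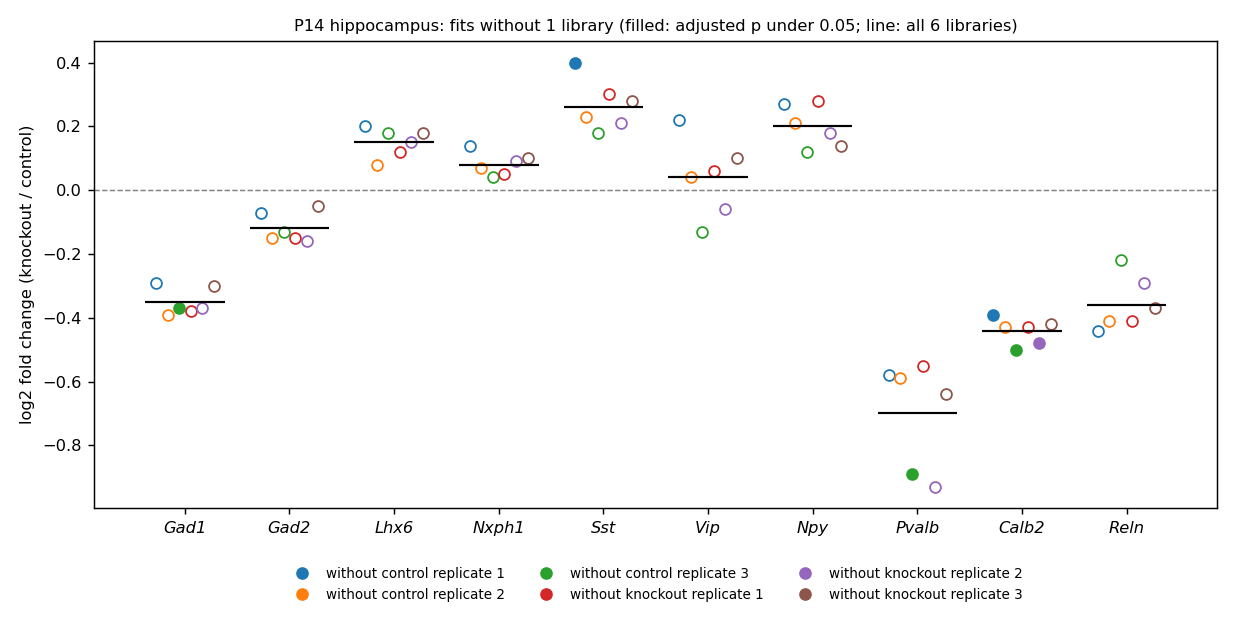
Log2 fold change at P14 (vertical axis) of each marker in the 6 fits that leave out 1 library, coloured by the library left out and filled where the edgeR adjusted p was under 0.05; the black line is the value with all 6 libraries. Gad1 stayed between -0.39 and -0.29 and Calb2 between -0.50 and -0.39, and the filled points are 1 for Gad1, 3 for Calb2, 1 for Pvalb and 1 for Sst.

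In the P0 forebrain none of the 9 markers that could be tested passed the test by edgeR, and 1, Nxph1, had an unadjusted p under 0.05. Across all 16176 genes 0.909% passed, and 2609 had an unadjusted edgeR p under 0.05. DESeq2 also called none of the members. The libraries of the genotypes did not overlap for 3 of the 9 (Lhx6 higher, Nxph1 and Npy lower in the knockouts), against 21.8% of all genes tested. The members' median log2 fold change was -0.01, with 4 above and 5 below 0.

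Nxph1 was at 58.1, 52.2 and 54.7 CPM in the P0 knockouts and 69.1, 72.2 and 62.8 CPM in the wild types, with every knockout below every wild type. The log2 fold change was -0.31 (SE 0.0868, 95% interval -0.49 to -0.12, edgeR adjusted p 0.102). Lhx6, the other marker of this lineage, stood on the opposite side, at 99.4, 101 and 94.9 CPM in the knockouts and 87.8, 88.7 and 89.7 in the wild types (log2 fold change 0.15, edgeR adjusted p 0.353). Npy was at 52.0, 55.9 and 55.1 CPM in the knockouts and 64.2, 58.5 and 57.6 in the wild types (-0.15, edgeR adjusted p 0.409). Sst, the peptide of the same lineage as Lhx6, was at 100.2, 101 and 104 CPM in the knockouts and 105, 111 and 90.7 in the wild types, with an interval of -0.19 to 0.17 around -0.01.

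Gad1 at P0 was at 171, 166 and 185 CPM in the knockouts and 193, 195 and 175 CPM in the wild types, and Gad2 was at 119.9, 119.8 and 107 against 114, 116 and 106. Replicates 1 and 2 of Gad1 were lower in the knockouts, while in the second series, replicate 3, the knockout was the higher of the pair. With all 6 libraries the log2 fold change of Gad1 was -0.11 (95% interval -0.28 to 0.05, edgeR adjusted p 0.496). In the 4 libraries of the first series alone it was -0.20 (edgeR adjusted p 0.0323), and Nxph1 passed as well (-0.35, edgeR adjusted p 0.00608), in a fit where 12.9% of all genes passed. The second series holds 1 library per genotype and allows no test. The ratio of Gad1 to Gad2 counts was 1.42, 1.39 and 1.73 in the P0 knockouts and 1.70, 1.69 and 1.65 in the wild types.

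The subtype markers that appear late were hardly present at P0. Vip had 4, 4 and 7 counts in the knockouts and 12, 11 and 12 in the wild types (0.318, 0.331 and 0.423 against 1.01, 0.89 and 0.664 CPM). The counts did not overlap, but they fell under the filter on low counts, and without the filter the log2 fold change of -1.19 did not pass (edgeR adjusted p 0.375). Pvalb had 19, 13 and 8 counts in the knockouts and 12, 2 and 14 in the wild types, with an interval of -0.59 to 1.76 on the log2 scale. Reln was at 138, 164 and 122 CPM in the P0 knockouts and 146, 124 and 148 in the wild types, with an interval of -0.22 to 0.24.

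The difference between the genotype effects (P14 minus P0, in 1 fit to 12 libraries) passed for none of the 10 markers by edgeR, against 1.79% of 18189 genes. For this difference 5 of the 10 markers had an unadjusted edgeR p under 0.05, beside 2786 of the 18189 genes. Nxph1 came closest, with a difference of 0.37 on the log2 scale (95% interval 0.12 to 0.63, edgeR adjusted p 0.135). The difference was -0.25 for Gad1 (-0.49 to -0.02, edgeR adjusted p 0.287) and -0.18 for Calb2 (-0.73 to 0.37, edgeR adjusted p 0.784). A difference between contexts was therefore not shown for either gene called at P14.

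Ratios of the calcium-binding markers to Sst within single libraries do not depend on scaling between libraries. They too were chosen after the values were seen and have no test. The ratio of Calb2 to Sst counts was 0.341, 0.322 and 0.326 in the P14 knockouts and 0.49, 0.575 and 0.562 in the controls. The ratio of Pvalb to Sst counts was 0.0402, 0.0572 and 0.0448 in the knockouts and 0.0916, 0.112 and 0.0754 in the controls. Neither ratio overlapped between the P14 groups, and at P0 both did.

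**Figure D4:**
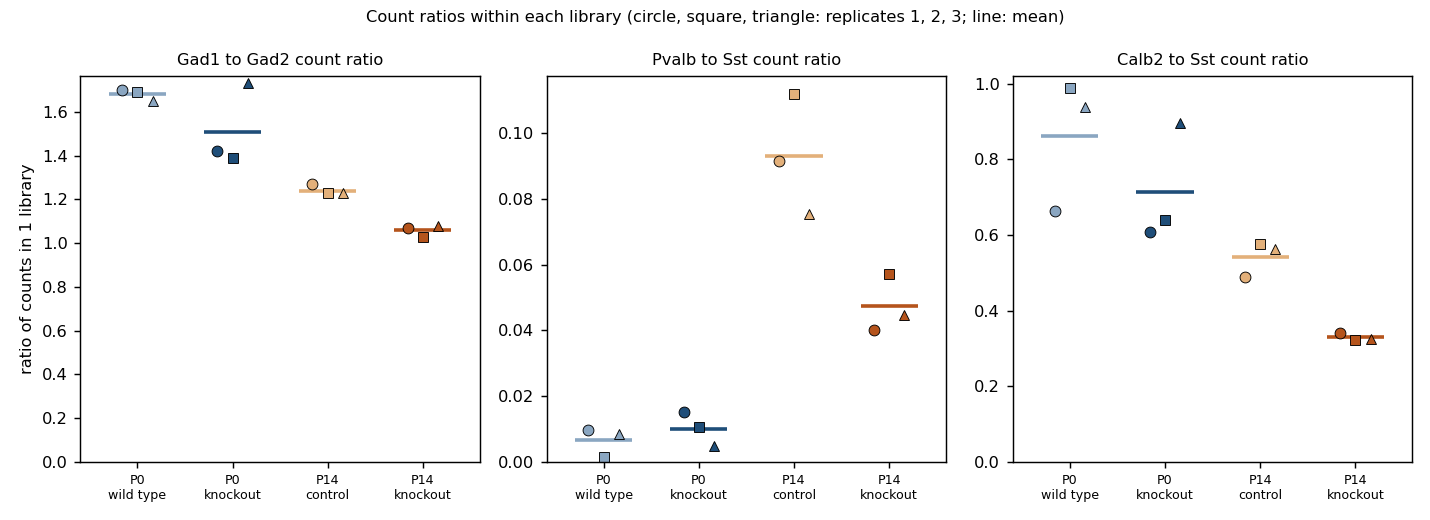
Ratio of the counts of 2 markers within each library (vertical axis, starting at 0), by group on the horizontal axis, with a line at the mean of 3. At P14 the knockout libraries lie below all controls in each panel: 1.03 to 1.08 against 1.23 to 1.27 for Gad1 to Gad2, for example.

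Another 61 interneuron and pathway genes were read beside the members. Their 4 lists cover GABA transport and breakdown, lineage transcription factors, other subtype markers and receptors. Not all of these genes are limited to interneurons. At P0, 5 of the 61 passed, all lower in the knockouts, and at P14, 1 of the 60 tested was higher and 4 were lower. Over all genes tested, 0.909% passed at P0, 31 higher and 116 lower, and 1.99% at P14, 209 higher and 133 lower. The transcription factors of the lineage did not pass at P0 (0 of 16 by edgeR, median log2 fold change 0.10). Of the 16, 6 had an unadjusted edgeR p under 0.05, beside 2609 of all 16176 genes. Dlx1, which specifies interneuron progenitors, was at 156 ± 13.4 CPM in knockouts and 135 ± 4.76 in wild types (SD, n = 3 each). Satb1, a factor of maturing interneurons, was at 95.2 ± 2.19 and 114 ± 4.04. At P14, 1 of 15 tested rose: Nkx2-1, the master factor of the medial ganglionic eminence, from 0.804 ± 0.264 to 2.25 ± 0.799 CPM (log2 fold change 1.49, edgeR adjusted p 0.0388). The Nkx2-1 call held in 1 of 6 fits without 1 library, that without control replicate 3, with adjusted p from 0.00547 to 0.22.

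Of the other subtype markers, 4 of 26 passed in each context, all lower, beside 0.909% of all genes at P0, where most calls were lower, and 1.99% at P14, where most were higher. At P0 these were Grin3a, an NMDA receptor subunit gene of somatostatin cells (log2 fold change -0.61, edgeR adjusted p 0.00566), the substance P gene Tac1 (-0.73, edgeR adjusted p 0.0197), the nitric oxide synthase gene Nos1 (-0.54, edgeR adjusted p 0.0203) and the calbindin gene Calb1 (-0.59, edgeR adjusted p 0.0252). The somatostatin receptor gene Sstr1 fell as well (-0.53, edgeR adjusted p 0.0474), the 1 receptor of 13 to pass. In fits without 1 P0 library, Grin3a and Nos1 passed in 3 of 6 (without knockout replicate 2, knockout replicate 3 or wild type replicate 3), Tac1 and Calb1 in 2 (without replicate 3 of either genotype) and Sstr1 in 1 (without knockout replicate 3).

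At P14 the other subtype markers that fell, beside Kcnc2, were Ndnf, a secreted factor gene of neurogliaform cells (log2 fold change -0.67, edgeR adjusted p 0.00377), the cannabinoid receptor gene Cnr1 of cholecystokinin basket cells (-0.34, edgeR adjusted p 0.0142) and Calb1 (-0.41, edgeR adjusted p 0.0355). Ndnf passed in all 6 fits without 1 library, with values from -0.72 to -0.57, and is a gene of Cajal-Retzius cells too. Cnr1 and Calb1 passed in 1 of 6 each, that without control replicate 3, and Calb1 is also a gene of dentate granule cells. The 26 markers had a median log2 fold change of -0.22 at P0 and -0.10 at P14. Their sum was lower in every knockout in both contexts. It was 997 to 1093 against 1101 to 1186 CPM at P0, and 1436 to 1528 against 1600.1 to 1703 at P14. These sums include the called genes. At P0 the means in knockouts and wild types were 99.0 and 151 CPM for Grin3a, and 41.5 and 62.5 for Calb1. They were 40.1 and 58.1 for Nos1 and 19.3 and 32.0 for Tac1. Other genes had the higher mean in knockouts, such as Cnr1 (266 and 232) and Id2 (167 and 154). The sums alone therefore do not show a fall across the list. None of the 13 receptor and adaptor genes passed at P14 by edgeR, and 4 had an unadjusted p under 0.05, beside 2622 of all 17208 genes.

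Markers of other cell types moved in the same libraries as Gad1, Calb2 and Reln at P14. Of 7 dentate granule cell markers 6 fell, Prox1 among them (log2 fold change -0.76, edgeR adjusted p 0.00111), and the list summed to between 258 and 280.3 CPM in the knockouts and between 420.4 and 467 in the controls. The 5 Cajal-Retzius cell markers summed to between 11.2 and 16.1 CPM in the knockouts and between 18.1 and 23.1 in the controls, with 1 called, Nhlh2 (-0.89, edgeR adjusted p 0.00822). The mossy cell list overlapped, at 94.9 to 123 and 101 to 142 CPM, with 0 of 4 called by edgeR. Of the 4, 2 had an unadjusted edgeR p under 0.05, beside 2622 of all 17208 genes. The striatal projection neuron list, whose cells make GABA, lay higher in the knockouts, at 181 to 265 against 137 to 166 CPM, with 1 of 10 called, Drd1 (1.46, edgeR adjusted p 0.00341). The oligodendrocyte precursor list was higher in all knockouts (255 to 278 against 212 to 247 CPM) and the endothelium list lower (95.1 to 106 against 121 to 124). No marker of these lists was at 0 in all P14 libraries. The part of these cells in the values of Gad1, Calb2 and Reln was not tested.

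At P0 the sums of the dentate granule list (98.8 to 112 against 119 to 137 CPM), the striatal list (327 to 344 against 353 to 394) and the astrocyte list (373 to 381 against 418 to 561) were lower in all knockouts than in all wild types. Those of the choroid plexus list (908 to 1003 against 676 to 855) and the mossy cell list (43.4 to 46.9 against at most 41.3) were higher in all knockouts. In the mossy cell list only Ociad2 was higher in every knockout (means 22.3 and 16.3 CPM in knockouts and wild types). Calcrl (9.58 and 10.3), Csf2rb2 (0.384 and 0.491) and Drd2 (12.7 and 12.3, also in the striatal list) overlapped. In the dentate granule list Stxbp6 was lower in every knockout (39.1 and 56.7) and Prox1 overlapped (52.8 and 55.5). These genes were named after their values were seen. No gene of either list passed by edgeR. The Cajal-Retzius list overlapped, at 57.3 to 66.2 and 55.6 to 64.7 CPM, as did the lists of the other cell types. In the cortical excitatory list, Fezf2 rose (log2 fold change 0.42, edgeR adjusted p 0.0427) and Slc17a7 fell (-0.54, edgeR adjusted p 0.0368), and Aqp4 of the astrocyte list fell (-0.59, edgeR adjusted p 0.0416). Their part in the values of Nxph1, Npy and the called markers was not tested.

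**Figure D5:**
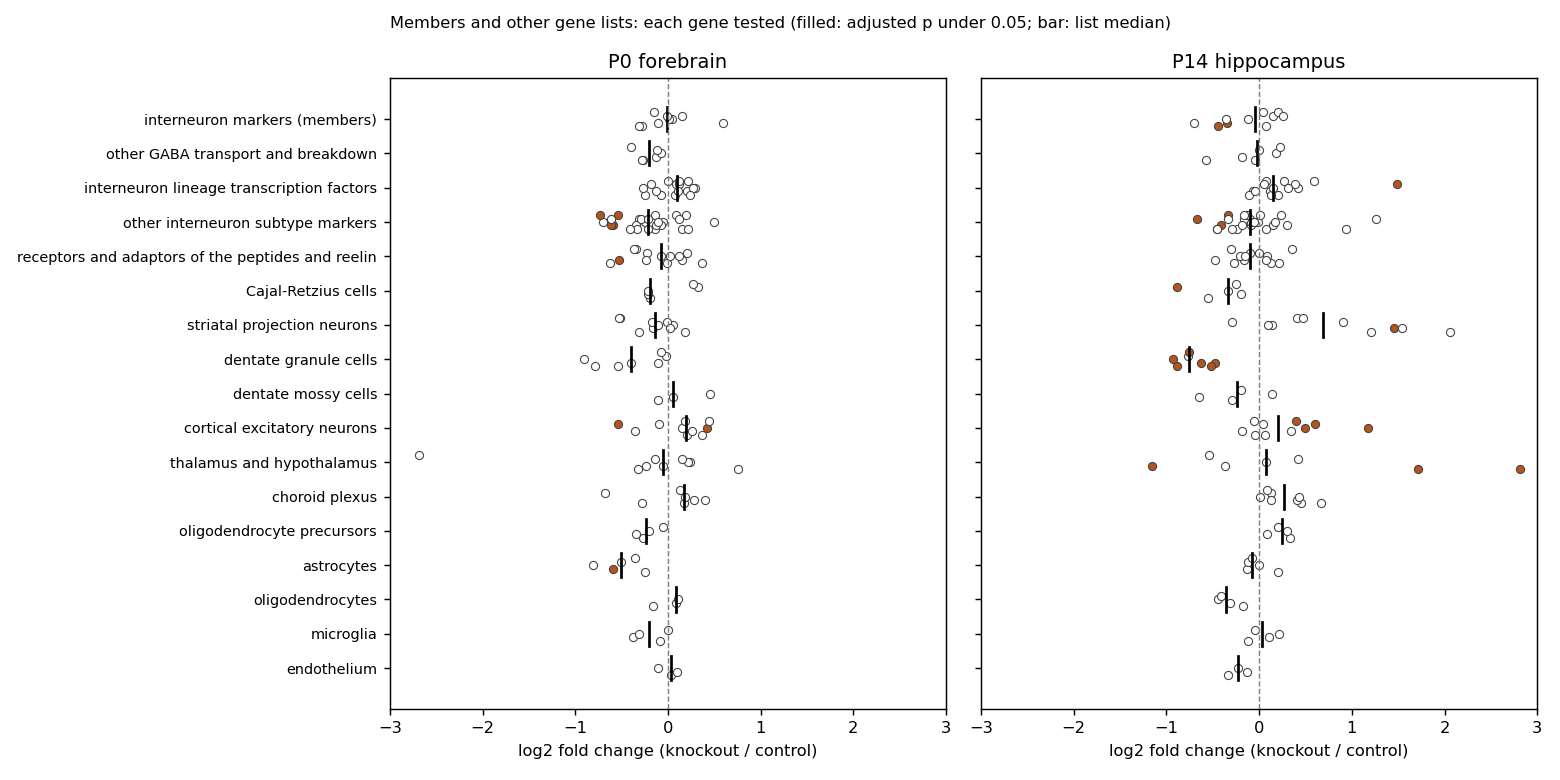
Log2 fold change (horizontal axis) of the listed genes tested at P0 (left) and P14 (right), filled where the edgeR adjusted p was under 0.05. Rows are the 10 markers, the 4 interneuron and pathway lists and the lists of other cell types, with a bar at the list's median. The 10 markers centre near 0 in both contexts (medians -0.01 and -0.04), and at P14 the dentate granule list stands apart with 6 of 7 filled.

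The genes whose pattern over the 12 libraries was most like each marker were found by the root mean square difference of centred log2 CPM, as a description over libraries that share tissue and age. For Gad1 these were Hdac1 (0.0788) and Ube2q2 (0.084), for Gad2 Necap1 (0.0597) and Socs5 (0.0654), for Nxph1 Ica1l (0.0622) and Sqle (0.0814), and for Npy Syt16 (0.0863) and Sept6 (0.0914). Lhx6 lay nearest Efnb2 (0.108), Sst nearest Sumf1 (0.107), Calb2 nearest Apool (0.155) and Vip nearest Ntsr2 (0.205). Pvalb had no close match, with Smim3 first at 0.52. Among the members themselves the closest pair was Gad2 and Sst, at 0.172, then Npy and Nxph1 at 0.186, and Gad1 and Gad2 at 0.264.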

How the data were processed

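RNA was measured in tissue of 12 individual mice. Per the labels' protocols, RNA was purified with Trizol, treated with DNase I, made into TruSeq RNA libraries and read in pairs of 150 bp on an Illumina HiSeq. The authors deposited raw counts of reads per Ensembl gene, 1 file per library, and per the submitters' processing notes STAR 2.7.5a was among their tools; per the file names the build is GRCm38 with annotation release 102. The handling of reads that map to several places is not given in the sources used here. The files hold an unstranded count and 1 per strand; the strand columns held nearly equal shares, so the unstranded count was used. Of 55487 identifiers, 55141 were matched to a symbol and position in GENCODE vM21 on GRCm38.

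Each context was fitted on its 6 libraries with edgeR 4.0.16 in R 4.3.3 (filterByExpr, TMM, estimateDisp, robust glmQLFit, glmQLFTest, Benjamini-Hochberg adjustment over all genes tested, threshold 0.05), and the difference of effects as an interaction over 12 libraries. The SE comes from the log2 fold change and its F statistic. CPM used TMM sizes over all 12 libraries, RPKM the exonic bases of a gene, and log2 CPM a prior count of 2. The fits were tested on simulated data. Intervals cover the spread between these animals and counting error; reads are not independent molecules. Alternatives were DESeq2 1.42.0, RLE scaling, no filter, non-robust fitting, the larger strand column, a GC offset, 1 fit to 12 libraries, the library number series, another gene length and leaving out each library.

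All members were named, with up to 4 called genes of each other list by smallest adjusted p, or else up to 2 of its most abundant, and the 2 nearest genes by pattern. Not all of these are printed, and a few genes outside the rule are marked as such. The members and lists were chosen with earlier results of these data known. Replicates were numbered in accession order and pair no libraries. Isoforms and exon 7 were not analysed here, and a few genes of the lists are counted but not reported here.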

Additional observations from a re-analysis of the deposited data

Results flagged for a closer look

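None of the 10 markers met a criterion for a closer look: the criterion for a single outlying library was not applied to groups of 3, and no marker differed between the contexts past the threshold. Beside them, 61 interneuron and pathway genes and 74 markers of other cell types were read. Of these, 12 had genotype effects that differed between the P14 hippocampus and the P0 forebrain in 1 fit to 12 libraries. Effects are given as the P14 minus the P0 log2 fold change, and over all 18189 genes tested 1.79% passed. Values are given here for 11 of the 12. Of the interneuron and pathway genes, these were Grin3a, with 0.89 (edgeR adjusted p 0.000699), the GABA transporter gene Slc6a11, with 0.61 (edgeR adjusted p 0.0134), and Cnr1, with -0.55 (edgeR adjusted p 0.0243). Slc6a11 passed in neither context on its own, with log2 fold changes of -0.40 at P0 and 0.23 at P14. The markers of other cells included Nhlh2 of Cajal-Retzius cells, with -1.23 (edgeR adjusted p 0.000668), and Prox1 of dentate granule cells, with -0.69 (edgeR adjusted p 0.00775). Of the striatal list they included the dopamine receptor gene Drd1, with 1.61 (edgeR adjusted p 0.00601), and Rgs9, with 0.99 (edgeR adjusted p 0.0287). Of the cortical excitatory list these were Mef2c, with 0.69 (edgeR adjusted p 0.00682), Slc17a7, with 0.56 (edgeR adjusted p 0.0334), and Neurod2, with -0.52 (edgeR adjusted p 0.0433). The vasopressin gene Avp of the hypothalamic list had 2.83 (edgeR adjusted p 0.00682). Tissue, age and Cre line changed together between the contexts, and their parts cannot be told apart.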

How the results depend on the processing

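At P14 the number of markers called was 2 under RLE scaling, a GC offset, the larger strand column and non-robust fitting. It was 1 in 1 fit to all 12 libraries (Gad1), 4 with DESeq2 (Gad1, Calb2, Reln and Pvalb) and 5 with no filter on low counts (the same 4 and Sst); without 1 library it ranged from 0 to 3. At P0 it was 0 under every alternative except the first library series alone, which gave 2. For the difference of effects it was 0, except 1 with no filter (Reln). Over all genes, the P0 count of 147 moved to 284 in 1 fit to all libraries, 357 with DESeq2, 366 with a GC offset, 465 with the series as a term, 2107 in the first series, 625 with no filter and 50 with non-robust fitting, and without 1 library it ranged from 1 to 775. The P14 count of 342 moved to 518 with DESeq2 and 814 with no filter, and without 1 library it ranged from 104 to 1808. The cause was not tested. With the mean transcript length, 8 of 20 ranks by RPKM (10 members in 2 control groups) stayed as they were.

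Signs turned only for values that passed under none of these settings. With the larger strand column, P0 Gad2 was at -0.0053 and Sst at 0.0051. Without 1 library, P0 Sst ranged from -0.084 to 0.052, P0 Reln from -0.1 to 0.11 and P14 Vip from -0.13 to 0.22. The difference of effects ranged from -0.087 to 0.047 for Lhx6, which was 0.001 with DESeq2 and 0.0028 with RLE scaling, and from -0.37 to 0.037 for Calb2. No paired analysis was possible because the labels carry no replicate numbers that the groups share. Vip and Pvalb at P0 rest on at most 19 counts in any library.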
